A study of Mus musculus with 8 samples.

Results

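Guides against the histone H3 lysine 4 (H3K4) methyltransferase genes Kmt2b, Kmt2c and Setd1b were followed through a single-cell CRISPR screen of tumour-infiltrating CD8+ T cells. These are 9 of the 280 guides of the library, 3 per gene. A cell was counted for a target when exactly 1 guide was called in it and mitochondrial transcripts made up at most 10% of its unique molecular identifiers (UMIs, which count captured transcripts). By this rule 748 of 23337 cells were members, 275 with a Kmt2b guide, 327 with a Kmt2c guide and 146 with a Setd1b guide. They were set against 2730 cells that carried 1 of 34 nontargeting guides (sgNT). A further 271 barcodes held a member guide together with another guide and were left aside.

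The cells were OT-I T cells, which carry a fixed receptor for an ovalbumin peptide, from mice that express Cas9 in all tissues through the Rosa26 locus. They were transduced with a pooled lentiviral library against metabolic enzymes, selected for the CD90.1 marker of the vector, and transferred into mice with an orthotopic pancreatic KPC_OVA tumour. Recipients received anti-PD-1 (aPD-1) or control IgG from the day of transfer, and CD90.1+ OT-I cells were sorted from the primary tumour at day 7. All groups therefore share the Cas9 knock-in, the transduction and the tumour, and differ in the antibody and in the guide. There were 3 aPD-1 libraries and 1 IgG library, each with cells of every target, so targets can be compared within a library while the treatments rest on 1 library on one side. The titles of aPD-1 replicates 1 and 2 share a number that replicate 3 and IgG do not have.

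H3K4 methyltransferases work inside COMPASS complexes, which share the core subunits WDR5, RBBP5, ASH2L and DPY30. KMT2B reads unmethylated CpG DNA through a CXXC domain and trimethylates H3K4 at CpG-rich promoters. KMT2C, with its relative KMT2D, places mostly monomethyl marks at enhancers. SETD1B, with SETD1A, is a main source of promoter H3K4 trimethylation. In CD8+ T cells H3K4 marks accompany the promoters and enhancers of genes that separate stem-like, effector and exhausted states.

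The 9 spacers are shown because each one fixes where its gene was cut. They are given 5′ to 3′ in lower case, with the protospacer-adjacent motif of the genome in capitals. Positions are on GRCm38 (mm10), and exon and codon numbers are those of the transcripts Kmt2b-201, Kmt2c-201 and Setd1b-204.
Kmt2b guide 1: gtgaaccctctactccccgaCGG
Kmt2b guide 2: ccggggtgtcttgataacacGGG
Kmt2b guide 3: gggcctgttaagctcaaaggTGG
Kmt2c guide 1: aaaaggcccattacccaatgGGG
Kmt2c guide 2: agaaccattattagtaaacgTGG
Kmt2c guide 3: ggtgaaatggatgatagtcg
Setd1b guide 1: tcattatgtccacaactcagCGG
Setd1b guide 2: tcacaggaaacagtcccggtGGG
Setd1b guide 3: aagcgggaccccaaaagcgtGGG
Kmt2c guide 3 lies at the end of an exon, so its motif falls outside the transcript sequence used and is not shown.

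All 9 matched a coding exon of the intended gene, and none had a full match in the transcripts of another gene. Kmt2b lies on the minus strand at chr7:30568858-30588726. Its guides 1 (chr7:30586812-30586831) and 2 (chr7:30585804-30585823) cut in exon 3 of 37, at codons 218 and 549 of 2721. Guide 3 (chr7:30580119-30580138) cuts in exon 16 at codon 1430, 52.5% into the coding sequence. Kmt2c lies on the minus strand at chr5:25271798-25498783, and guide 2 (chr5:25404311-25404330) cuts earliest, in exon 6 of 59 at codon 271 of 4904. Guide 3 (chr5:25351054-25351073) cuts in exon 23 at codon 1230 and guide 1 (chr5:25314997-25315016) in exon 36 at codon 2033. Setd1b lies on the plus strand at chr5:123142193-123168629. Its guides 1 (chr5:123147870-123147889), 2 (chr5:123152191-123152210) and 3 (chr5:123157374-123157393) cut in exons 6, 7 and 9 of 17, at codons 332, 741 and 1007 of 1985. In each gene the cut lies before the SET domain, the catalytic domain at the carboxy-terminal end of these proteins.

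The libraries held 9579 to 23269 barcodes with 142945121 to 155974184 gene UMIs, and 26.9% to 51.1% of barcodes had a single guide. The median depth of the cells kept was 16744.5 UMIs in aPD-1 replicate 1, 16223.5 in replicate 2, 11968.5 in replicate 3 and 6298 in IgG. Between 3 and 20 barcodes were shared by any pair of libraries. Over the 8 T cell identity genes the member sums reached 7467 to 9123 UMIs per 1000000 (CPM) against 8409 to 9397 in sgNT cells. The 7467 to 7789 CPM of Setd1b cells lay below every sgNT library. The neutrophil and fibroblast markers were at 0 in all 3 targets. Guide calls were thin, since the median member cell held 3 UMIs of its guide and 461 of 748 held fewer than 5.

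The targeted transcripts were examined first. Kmt2b transcript reached 30.2 CPM in aPD-1 replicate 1, 24.6 in replicate 2, 29.7 in replicate 3 and 38.6 in IgG in Kmt2b cells, against 31.0, 30.8, 34.8 and 44.0 CPM in sgNT cells. It was lower in all 4 libraries, yet the log2 difference of -0.21 ± 0.15 (SE) did not pass (edgeR quasi-likelihood test, adjusted p = 0.91). Kmt2c transcript in Kmt2c cells was 20.4, 15.1, 30.2 and 23.9 CPM in the same order, against 26.0, 22.4, 26.5 and 31.0 CPM (log2 difference -0.25 ± 0.18, edgeR adjusted p = 1). Setd1b transcript in Setd1b cells was 22.2, 24.8, 23.3 and 21.8 CPM, against 30.5, 24.6, 21.3 and 24.6 CPM (log2 difference -0.12 ± 0.22, edgeR adjusted p = 0.97). A difference from sgNT cells was not detectable for any of them at this depth. The reads come from the 3′ end of the transcript, away from the cuts, so its level does not check the edit. The protein and the H3K4 mark were not measured.

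Among the other H3K4 methyltransferases no gene passed for any target. Kmt2a in Kmt2b cells differed by 0.04 ± 0.12, Kmt2d by -0.10 ± 0.16 and Setd1a by 0.20 ± 0.23 on the log2 scale. Setd1b transcript in Kmt2b cells was lower by a log2 difference of -0.47 ± 0.18 (edgeR, unadjusted p = 0.0086, adjusted p = 0.42). Over all 10020 genes tested 0.339% passed with Kmt2b, 0% with Kmt2c and 0.259% with Setd1b guides, so in a list of this size a count of 0 is near the background. Of the 13 COMPASS subunits 12 were tested and none passed for any target, and none of the 18 other histone methylation enzymes did. Kdm5b, a demethylase of H3K4, was the 1 of 5 H3K4 demethylases that passed, and fell in Kmt2b cells. Its level was 20.9, 11.4, 26.5 and 19.3 CPM in aPD-1 replicates 1 to 3 and IgG, against 27.0, 30.5, 47.6 and 49.0 CPM, a log2 difference of -0.96 ± 0.23 (edgeR, adjusted p = 0.015). Each Kmt2b library lay below its sgNT counterpart, and the ratio of observed UMIs to those predicted from sgNT cells of the same library was 0.88, 0.67 and 0.33 for guides 1 to 3, against 0.59 to 2.17 over the sgNT guides. The call held in 11 of 19 alternatives, over which the difference ranged from -1.25 to -0.64. It was lost without guide 3, without aPD-1 replicate 2, aPD-1 replicate 3 or IgG, within each pair of libraries (replicates 1 and 2, or replicate 3 and IgG), without cells of other types and with at least 5 guide UMIs. Kdm5b is also among the 10 leading genes of a cell cluster led by Bnip3, whose share in Kmt2b cells differed by -6.87 percentage points (exact permutation p = 0.16), and the part of this share in the Kdm5b difference was not tested.

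The number of cells varied among the guides of a target. Kmt2b guide 1 was found in 5, 5, 17 and 27 cells of aPD-1 replicates 1 to 3 and IgG, guide 2 in 1, 4, 36 and 19 cells, and guide 3 in 40, 50, 35 and 36 cells. Guide 3 thus supplied 90 of the 105 Kmt2b cells of replicates 1 and 2, or 85.7%, but 71 of 170 in replicate 3 and IgG. Kmt2c guides 1 to 3 were found in 133, 79 and 115 cells in all, and Setd1b guides in 44, 52 and 50. The sgNT guides spanned 32 to 208 cells with a median of 75.5. Setd1b guide 3 had no cell among the 2616 of replicate 2.

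As the log2 share of cells per guide averaged over libraries, Kmt2c guides lay 0.70 above, Kmt2b guides 0.14 above and Setd1b guides 0.70 below the sgNT guides. In an exact two-sided permutation test over all 7770 reassignments of guides, p was 0.074 for Kmt2c, 0.74 for Kmt2b and 0.080 for Setd1b (adjusted over 79 targets 0.32, 0.90 and 0.33). Of those 79 targets 8.86% passed the adjusted threshold and 17.7% an unadjusted p under 0.05, and none of the 3 was among either. The share of each guide before transfer was not analysed here.

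Per 100 sgNT cells there were 14.2, 15.6 and 11.9 Kmt2b cells in aPD-1 replicates 1 to 3 and 6.38 in IgG, the lowest value. Guide 3 had the same order of libraries, at 12.4, 13.2, 4.72 and 2.80 per 100. Guides 1 and 2 together were at 1.86, 2.37, 7.14 and 3.58 per 100, so for them IgG lay inside the aPD-1 range. The step from replicate 3 down to IgG was present in guide 3 and in guides 1 and 2 together. For the 3 guides together the log2 difference between IgG and the aPD-1 mean was -1.11, and the exact permutation p of 0.25 is the smallest that 4 libraries can give. Against replicate 3 alone it was -0.90 (95% interval -1.35 to -0.44, counting error only). Kmt2c cells numbered 15.8, 11.1, 9.70 and 12.6 per 100 in the same order and Setd1b cells 5.57, 3.69, 6.06 and 5.37, with IgG inside the aPD-1 range in both.

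Cells of each target were compared with sgNT cells gene by gene. Of 10020 genes tested, 34 differed in Kmt2b cells (0.339%), 14 higher and 20 lower, while 684 had an unadjusted p under 0.05 (6.83%). In Kmt2c cells 0 genes passed the edgeR test (0%) and 401 had an unadjusted p under 0.05 (4%). In Setd1b cells 26 genes passed (0.259%), 16 higher and 10 lower, with 700 at an unadjusted p under 0.05 (6.99%). The replicates are libraries that each pool the cells of a target. The p-values therefore measure how sums vary across libraries once library and target are fitted. They do not measure the spread between targets or between the guides of a target. The screen was run in more than one experiment and batch, but the sources used here do not say which library belongs to which, or which libraries share animals. The paper states that every sample had its own channel. Replicates 1 and 2 of aPD-1, whose titles share a number, may still come from the same animals. They count as 2 libraries in these tests and in each statement on 4 libraries. With replicate 1 left out 19 Kmt2b and 31 Setd1b genes were called, and with replicate 2 left out 15 and 3. Some values are also given within replicates 1 and 2 and within replicate 3 and IgG.

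The genes that fell in Kmt2b cells included Pigp and Ttc3, head-to-head neighbours on chromosome 16. Pigp encodes a subunit of the enzyme that starts glycosylphosphatidylinositol anchor synthesis, and its dependence on Kmt2b is known from other cells. Ttc3 encodes a ubiquitin ligase, and was named after its values were seen, outside the rule for named genes. Pigp reached 30.2, 30.7, 37.8 and 33.8 CPM in aPD-1 replicates 1 to 3 and IgG, against 47.0, 49.8, 61.9 and 68.0 CPM in sgNT cells. The highest Kmt2b library lay below the lowest sgNT library, and the log2 difference was -0.77 ± 0.16 (edgeR, adjusted p = 0.0012).

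Ttc3 reached 29.0, 16.7, 34.6 and 37.0 CPM, against 52.8, 39.5, 54.0 and 62.6 CPM, a log2 difference of -0.86 ± 0.17 (edgeR, adjusted p = 9.9e-04). Every Kmt2b library was again below all sgNT libraries. By guide, Pigp was at 0.90, 0.45 and 0.55 of its predicted UMIs with guides 1 to 3 and Ttc3 at 0.78, 0.75 and 0.43, while the 34 sgNT guides spanned 0.68 to 1.32 for Pigp and 0.69 to 1.51 for Ttc3. Without guide 3 only replicate 3 and IgG held enough Kmt2b cells, and there Pigp differed by -0.78 and Ttc3 by -0.53 (edgeR, adjusted p = 0.41 and 0.79). Pigp passed in 14 of 19 alternatives and Ttc3 in 15. Both were also lost with at least 5 guide UMIs and within each pair of libraries, and Pigp without IgG.

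Neither gene passed with the other targets. Pigp differed by 0.09 ± 0.13 in Kmt2c cells and 0.04 ± 0.17 in Setd1b cells, and Ttc3 by 0.09 ± 0.15 and 0.14 ± 0.18. The direct difference of Kmt2b from Kmt2c cells was -0.86 ± 0.18 for Pigp and -0.95 ± 0.20 for Ttc3 (edgeR, adjusted p = 0.0025 for both), and that from Setd1b cells was -0.81 ± 0.21 and -0.9996 ± 0.23 (adjusted p = 0.041 and 0.010). Magohb, an exon junction subunit gene also known to need Kmt2b elsewhere, was at 103, 115, 56.3 and 45.1 CPM against 115, 127, 99.6 and 84.2 CPM. It was lower in each library (log2 difference -0.42 ± 0.14, unadjusted p = 0.0021) but did not pass over all genes (edgeR, adjusted p = 0.23). Within aPD-1 replicates 1 and 2 alone Magohb differed by -0.16 and did not pass. Within replicate 3 and IgG alone it differed by -0.83 and passed (edgeR, adjusted p = 0.035).

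Pigp (chr16:94358763-94371842, minus strand) and Ttc3 (chr16:94370618-94469343, plus strand) overlap by 1225 bases at their starts. The 250 bases before the RefSeq start of Ttc3, chr16:94370489-94370738 on the plus strand of GRCm38.p6, are shown because 3 of the 4 Pigp start windows overlap them, by 28, 92 and 188 bases, while the other shares 0 bases. CG dinucleotides are in capitals.
Ttc3 start window: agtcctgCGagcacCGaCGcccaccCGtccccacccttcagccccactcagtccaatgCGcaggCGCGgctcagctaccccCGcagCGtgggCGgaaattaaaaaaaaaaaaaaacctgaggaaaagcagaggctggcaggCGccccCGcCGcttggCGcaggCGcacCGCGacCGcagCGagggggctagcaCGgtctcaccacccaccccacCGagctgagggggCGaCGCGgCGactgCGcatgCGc
It holds 27 CG dinucleotides, a number reached by 8.6% of the 32851 RefSeq start windows of that length, whose median was 6. Over the 7897 genes tested here that had a window the median was 18. The 4 Pigp windows held 22 to 38, and the Magohb window 16 (25.4% of windows held as many). The count is read in both directions, since CG is its own reverse complement. Both directions of change held high and low counts. Taking the highest window per gene, the 14 fallen Kmt2b genes with a window had 6 (Slc37a2) to 41 (Satb1) CG dinucleotides with a median of 21, and the 7 risen ones had 2 to 39 (Rap2a) with a median of 3.

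Lcn4, a lipocalin gene, was called with Kmt2b and with Setd1b guides, with opposite signs. In Kmt2b cells it was 30.2, 33.3, 54.6 and 43.4 CPM in aPD-1 replicates 1 to 3 and IgG, against 12.2, 9.38, 30.003 and 23.0 CPM in sgNT cells. It was higher in each library, by a log2 difference of 1.14 ± 0.18 (edgeR, adjusted p = 8.1e-06). The 3 Kmt2b guides had 2.20, 1.96 and 2.28 times the predicted UMIs, all above the highest sgNT guide at 1.80. The rise passed in 17 of 19 alternatives and was lost without guide 3 (0.96, adjusted p = 0.28) and within replicate 3 and IgG alone.

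In Setd1b cells Lcn4 was 2.78, 0, 0 and 9.89 CPM in the same order, from 6 UMIs in all, against 12.2, 9.38, 30.003 and 23.0 CPM. Each value was below that of the sgNT cells of the same library, although the limit of 3 UMIs in replicate 2 allowed 12.4 CPM, more than the 9.38 CPM of sgNT cells there. In replicate 3 the limit was 4.12 CPM against 30.003 CPM. The log2 difference was -2.64 ± 0.48 (edgeR, adjusted p = 1.6e-04). It passed in 15 of 19 alternatives, at -4.50 to -1.52 over all of them, and was lost without guide 2 (-2.22, adjusted p = 0.17), without aPD-1 replicate 3, within aPD-1 replicates 1 and 2 alone (adjusted p = 0.69) and with at least 5 guide UMIs. For Setd1b the fit without guide 2 also lacks aPD-1 replicate 2, where 12 of 14 cells held that guide, so wherever it is used it removes both at once and 3 libraries remain. Guides 1 to 3 were at 0.34, 0.071 and 0.070 of the predicted UMIs (95% Poisson intervals, counting error only, 0.093 to 0.87, 0.0018 to 0.40 and 0.0018 to 0.39). In Kmt2c cells Lcn4 did not pass. Directly compared, Kmt2b cells were above Setd1b cells by 3.78 ± 0.45 and above Kmt2c cells by 1.18 ± 0.24 on the log2 scale, and Kmt2c cells were above Setd1b cells by 2.61 ± 0.53 (edgeR, adjusted p = 3.7e-11, 0.0025 and 0.0033). Lcn4 was the 1 gene of the 59 called with either target that was called with both. Its start window, chr2:26671283-26671532 on the minus strand, is shown because Lcn4 was called with both targets. It holds 3 CG dinucleotides, a number that 71.0% of windows reached.
Lcn4 start window: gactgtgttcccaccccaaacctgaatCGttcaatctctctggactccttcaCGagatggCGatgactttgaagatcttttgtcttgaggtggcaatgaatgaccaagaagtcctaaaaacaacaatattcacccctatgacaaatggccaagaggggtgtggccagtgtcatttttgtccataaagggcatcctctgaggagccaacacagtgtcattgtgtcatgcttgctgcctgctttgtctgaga

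Klra7, an inhibitory Ly49 receptor gene, was 26.7, 14.9, 2.41 and 25.7 CPM in aPD-1 replicates 1 to 3 and IgG, against 4.39, 4.90, 1.24 and 2.84 CPM (log2 difference 2.22 ± 0.38, edgeR adjusted p = 3.3e-05). Klra1, of the same family, was 18.6, 7.02, 17.7 and 8.05 CPM against 3.09, 3.92, 4.40 and 3.27 CPM (1.75 ± 0.31, adjusted p = 4.3e-05). Both were higher in every library and with every guide. The guides stood at 8.45, 2.86 and 4.21 times the predicted UMIs for Klra7 and 1.95, 3.57 and 3.89 for Klra1. The sgNT guides reached 5.66 and 5.30, so only guide 1 for Klra7 stood above them. The Klra7 value rested on 59 UMIs in 16 of 275 cells, with 13 UMIs (22.0%) in 1 cell. In aPD-1 replicate 3 Klra7 had 3 UMIs, which only reached the limit of 3 UMIs. Klra7 guide 2 had 4 UMIs and Klra1 guide 1 had 5. Their Poisson intervals (counting error only) were 0.78 to 7.33 and 0.63 to 4.54, so both included 1. Members of the Ly49 family are close in sequence, so reads of one may be counted for another.

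Itgax, the integrin CD11c, was 25.5, 18.4, 24.1 and 14.5 CPM against 9.91, 5.60, 11.8 and 11.0 CPM (1.11 ± 0.24, edgeR adjusted p = 0.0050). It was higher in all 4 libraries, but guide 1 stood at 0.70 of its prediction and guides 2 and 3 at 2.23 and 2.75 (sgNT guides up to 2.36). Rap2a, a Ras-related GTPase gene, rose by 1.06 ± 0.21, Them6 by 0.90 ± 0.18 and the aldo-keto reductase gene Akr1c13 by 1.77 ± 0.28 (edgeR, adjusted p = 9.9e-04, 0.0012 and 3.0e-06). The guides stood at 2.89, 1.75 and 1.99 for Rap2a and at 0.87, 2.27 and 2.03 for Them6, with sgNT guides up to 2.17 and 1.83. Rap2a passed in 13 of 19 alternatives and was lost without aPD-1 replicate 1 and without IgG among others, and Them6 passed in 14 and was lost without aPD-1 replicate 2 among others. Neither passed without guide 3, at 1.24 and 0.72 in the 2 libraries left. Akr1c13 ranged over guides from 0.86 with guide 2 to 4.42 with guide 3, and without guide 3 its difference was 0.26. It passed in 14 of 18 alternatives. Akr1c13 was lost without guide 3, without cells of other types, with at least 5 guide UMIs and within replicate 3 and IgG alone.

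Ier5l fell in Kmt2b cells. It was 8.12, 19.3, 6.43 and 4.83 CPM in aPD-1 replicates 1 to 3 and IgG, against 54.3, 71.3, 9.27 and 7.64 CPM, a log2 difference of -1.76 ± 0.30 (edgeR, adjusted p = 3.3e-05). The drop was steep in replicates 1 and 2, where sgNT levels were high, and small in the other libraries, and without guide 3 it was -0.09. Ube2e3, a ubiquitin-conjugating enzyme gene, was 23.2, 27.2, 13.7 and 11.3 CPM against 40.8, 45.9, 28.6 and 27.9 CPM (-0.90 ± 0.18, adjusted p = 0.0013), with guides at 0.60, 0.57 and 0.51, inside the 0.35 to 1.45 of the sgNT guides. Camk2n1, an inhibitor of calcium/calmodulin kinase II, fell by 1.17 ± 0.26 on the log2 scale (adjusted p = 0.0076), and its guides at 0.34, 0.44 and 0.48 were all below the lowest sgNT guide at 0.56.

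Ctnna1, the alpha-catenin that ties cadherins to actin, fell by 0.98 ± 0.21, Slc37a2, a sugar-phosphate transporter gene, by 2.04 ± 0.43, Prr7 by 1.13 ± 0.26 and Lxn by 0.87 ± 0.23 on the log2 scale (edgeR, adjusted p = 0.0032, 0.0022, 0.0089 and 0.044). The Slc37a2 value rested on 10 UMIs and lay below the limit of 3 UMIs in aPD-1 replicates 1 and 2 and IgG. Slc37a2 was also lost without aPD-1 replicate 1 and without replicate 2. Msrb2 and Vsig10 also passed on 2 and 0 UMIs in Kmt2b cells. For Vsig10 the limit of 3 UMIs per library allowed 2.41 to 4.83 CPM, a range that overlaps the 1.96 to 3.27 CPM of sgNT cells, so no fold is given. Satb1, a chromatin organiser of T cells, fell by 0.81 ± 0.20 outside the rule for named genes (adjusted p = 0.019) and was named after its values were seen. Of 19 alternatives Ctnna1 passed in 11, Itgax and Satb1 in 10, Camk2n1 in 9 and Lxn in 8, and none of these passed without guide 3, where 2 libraries remained. There Ctnna1 differed by -0.9996, Camk2n1 by -1.52, Itgax by 0.85, Satb1 by -0.61 and Lxn by -0.25, so for Ctnna1 and Camk2n1 the difference was as large as with all guides. Klra7 and Ier5l passed in 16, Ube2e3 and Slc37a2 in 14 and Prr7 in 10, again not without guide 3, at differences of 2.36, -0.09, -1.12, -0.84 and -1.95. Without cells of other types Itgax, Satb1, Camk2n1, Lxn, Ier5l, Ube2e3 and Prr7 were lost, while Ctnna1, Klra7 and Slc37a2 passed.

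The guides behind the calls were then counted. Of the 34 calls, 4 rested on 1 cell for over 50% of the UMIs or on a single UMI (Gm5907, Mpo, Cd40lg and Pank1). Of the other 30, all 19 genes that fell had every Kmt2b guide below its prediction, and 17 were lower in all 4 libraries. Of the 11 that rose, 4 had every guide above and 7 were higher in all libraries. The calls were made on the same cells pooled over guides, so these counts describe the called genes and test nothing. Gm49795, also named after its values were seen, rose by 4.26 through guide 3 alone, from 41 UMIs, and none was found with guides 1 or 2. Guide 3 stood at 53.6 times its prediction and the highest sgNT guide at 39.0.

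Trdc, the T cell receptor delta constant gene, was named after its values were seen and rose through guide 3 as well. Its level in Kmt2b cells was 537 and 474 CPM in aPD-1 replicates 1 and 2 against 141 and 157 CPM, but 111 and 105 CPM in replicate 3 and IgG against 116 and 93.7 CPM (log2 difference 1.20 ± 0.30, edgeR adjusted p = 0.028). Of the guide 3 cells of replicates 1 and 2, 42.5% of 40 and 40.0% of 50 held at least 10 Trdc UMIs, against 6.50% and 8.44% of sgNT cells. The sort took CD90.1+ OT-I cells, whose donors were bred from Rag2/OT-I mice and which carry an alpha-beta receptor, and every cell counted had a guide call, so these values do not show which cells held the Trdc transcripts. Over the 3 gamma-delta T cell markers, Trdc among them, Kmt2b sums held 119 to 570 CPM and sgNT sums 105 to 161 CPM, and the part of cells with these transcripts in the other Kmt2b calls was not tested beyond the removal of cells by the list of other cells' markers, which holds Trdc itself. This removal took 21 of 46 and 21 of 59 Kmt2b cells in aPD-1 replicates 1 and 2, against 35 of 323 and 52 of 379 sgNT cells. In replicate 3 and IgG it took 5 of 88 and 2 of 82 Kmt2b cells, against 55 of 742 and 17 of 1286 sgNT cells. After it 12 of the 34 genes were called. Trdc passed in 10 of 19 alternatives, and without guide 3 its difference was -0.52. Without this guide the Kmt2b calls fell to 3, none of them among the 34, with at least 5 guide UMIs to 4, and without any 1 library to between 15 and 19. Within aPD-1 replicates 1 and 2 alone 13 genes were called, 11 of them among the 34, and within replicate 3 and IgG alone 7, of which 2 were. Pigp differed by -0.68 and -0.84 in these pairs of libraries and Ttc3 by -1.06 and -0.71 (edgeR, adjusted p = 0.67 and 0.056 for Pigp, 0.089 and 0.16 for Ttc3), and Lcn4 by 1.53 and 0.89 (adjusted p = 0.0026 and 0.12).

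Among the 10 genes that fell in Setd1b cells, Klrk1, the activating receptor NKG2D, had the smallest adjusted p. It was 69.5, 94.9, 72.7 and 133 CPM in aPD-1 replicates 1 to 3 and IgG, against 225, 189, 198 and 235 CPM. The highest Setd1b library lay below the lowest sgNT library (log2 difference -1.21 ± 0.20, edgeR adjusted p = 2.6e-05). Guides 1 to 3 were at 0.40, 0.40 and 0.49 of the predicted UMIs, against 0.47 to 1.28 over sgNT guides. Klrk1 passed in 18 of 19 alternatives, also without guide 2 (-1.16, adjusted p = 0.030). The exception was aPD-1 replicates 1 and 2 alone (-1.35, edgeR adjusted p = 0.051).

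Klrc2 and Klrc1, the NKG2C and NKG2A chains of the same gene cluster, fell by 0.9998 ± 0.21 and 0.67 ± 0.17 on the log2 scale (edgeR, adjusted p = 0.0032 and 0.043). Klrc2 was 47.3, 41.3, 38.4 and 57.4 CPM against 122, 109, 73.0 and 84.2 CPM, with no overlap between the groups. Its guides stood at 0.55, 0.23 and 0.84, the third inside the 0.66 to 1.39 of the sgNT guides. Without guide 2, and so without aPD-1 replicate 2, its difference was -0.52 (adjusted p = 0.88), and without replicate 2 alone -0.93 (adjusted p = 0.079). Nkg7, a granule protein of cytotoxic cells, was 2244, 1948, 2569 and 2360 CPM against 2787, 3100, 3263 and 2747 CPM (-0.40 ± 0.09, adjusted p = 0.0079). Ctsc, the protease that activates granzymes, fell by 0.65 ± 0.16 and Fgl2, a secreted fibrinogen-like protein, by 0.99 ± 0.25 (adjusted p = 0.026 and 0.042). Ctsc passed in 9 of 19 alternatives, Fgl2 in 8, Klrc1 in 9 and Nkg7 and Klrc2 in 11. Ctsc, Fgl2 and Klrc1 were lost without the cells of the narrower other-cell list, of which 1 was a Setd1b cell, and Fgl2 and Klrc1 also with RLE size factors.

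Trac, the T cell receptor alpha constant gene, was the 1 of 8 T cell identity genes that passed, beside 0.259% of all genes tested. It was 1543, 945, 560 and 538 CPM against 1852, 1842, 793 and 690 CPM (-0.52 ± 0.10, edgeR adjusted p = 1.6e-04), lower in each library, and all 8 identity genes had a difference below 0, as did 53.1% of all genes tested. Ly6a, the surface protein Sca-1, was 139, 66.0, 198 and 127 CPM against 289, 339, 364 and 227 CPM (-1.09 ± 0.21, adjusted p = 9.8e-04), and all 3 guides at 0.67, 0.25 and 0.60 lay below the sgNT guides. Gm8369 fell by 0.63 ± 0.14 and passed in 10 of 19 alternatives. Trac passed in 14 of 19 alternatives and Ly6a in 13, and both were lost without aPD-1 replicate 2, alone or together with guide 2. All 10 genes that fell with Setd1b guides were lower in all 4 libraries and with every guide, a description of genes called on the same cells and no test.

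Tcf7, the transcription factor TCF-1 that marks stem-like T cells, rose in Setd1b cells. It was 44.5, 136, 20.6 and 27.7 CPM in aPD-1 replicates 1 to 3 and IgG, against 11.9, 7.14, 8.41 and 24.9 CPM, a log2 difference of 1.77 ± 0.40 (edgeR, adjusted p = 0.0078). The gap was large in the aPD-1 libraries and small in IgG. The guides disagreed, at 0.73, 7.05 and 1.78 times the predicted UMIs, with sgNT guides up to 2.12. It passed in 12 of 19 alternatives. Without guide 2, and with it aPD-1 replicate 2, the difference was 0.44, and without that library alone it was 0.98, and neither passed (adjusted p = 0.98 and 0.73).

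Ms4a4c rose by 1.47 ± 0.31 with guides at 2.12, 4.36 and 1.95 (sgNT guides up to 2.23), and the tetraspanin gene Cd9 by 0.97 ± 0.23 with guides at 1.98, 2.41 and 1.40 (sgNT guides up to 1.93; edgeR, adjusted p = 0.0032 and 0.020). Ms4a4c passed in 12 of 19 alternatives. Cd9 passed in 8 and was lost without other cells by either marker list, without aPD-1 replicate 2, aPD-1 replicate 3 or IgG, and without guide 1 or guide 2 among others. Prss2, a trypsinogen of pancreatic acinar cells, was 13.9, 8.26, 9.61 and 25.7 CPM against 0.97, 2.10, 2.48 and 2.95 CPM (2.59 ± 0.60, adjusted p = 0.011). Its 27 UMIs were spread over 12 cells and all 3 guides, at 7.29, 6.54 and 5.73, above the highest sgNT guide at 5.42. It passed in 10 of 18 alternatives and was lost without guide 1, guide 2, aPD-1 replicate 1, aPD-1 replicate 2 or IgG, within each pair of libraries and with at least 20 cells per sum. The 5 acinar markers, Prss2 among them, summed to between 8.26 and 25.7 CPM in Setd1b cells against 4.22 to 7.74 CPM in sgNT cells. Cel, Cpa1 and Ctrb1 were at 0 in the cells of all 3 targets, and the part of acinar transcripts in the Prss2 difference was not tested.

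Sh3bp5, outside the rule for named genes and named after its values were seen, rose by 1.44 ± 0.33 (edgeR, adjusted p = 0.0085) from 35 UMIs in 27 cells, with guides at 1.79, 4.90 and 1.37 (sgNT guides up to 2.21), and passed in 11 of 19 alternatives. Cd63 and Mpzl2, named in the same way, also passed, on 22 UMIs in 6 cells, 10 of them (45.5%) in 1 cell, and 19 UMIs in 9 cells. Cd63 passed in 7 of 17 alternatives, at 0.20 to 4.70, and was lost without other cells by either list and without aPD-1 replicate 2 or 3 among others. Mpzl2 passed in 9 of 17, at 1.67 to 2.93, and was lost without aPD-1 replicate 1, replicate 3 or IgG among others. For 9 of the 16 genes (Clu, Krt8, Krt18, Sprr1a, Rbp4, Igfbp4, Myof, Il33 and Cpe) the same cell held over 50% of the UMIs. It was a guide 2 cell of aPD-1 replicate 2 with 28331 UMIs, 133 of them of Clu, 119 of T cell identity genes and 1 of the guide. Keratins are epithelial genes, and the 6 tumour epithelium markers summed to between 0 and 305.5 CPM in Setd1b cells against 9.08 to 12.1 CPM in sgNT cells. Without cells holding at least 10 UMIs of other cells' markers by a narrower list, chosen after the data were seen, 13 Setd1b genes were called and 12 of the 26 were among them. Without aPD-1 replicate 2, where Setd1b had 14 cells, 3 were called, without replicate 3, 11, and without guide 2 and with it replicate 2, 1, which was Klrk1. With at least 5 guide UMIs 3 were called. Within aPD-1 replicates 1 and 2 alone 8 were called and within replicate 3 and IgG alone 5, and Tcf7 differed by 3.13 and 0.63 (edgeR, adjusted p = 6.2e-04 and 0.90).

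Kmt2c cells, though the most numerous, had no gene past the edgeR threshold, and the alternatives run gave 0 or 1, which does not show that no gene differed. The gene with the smallest p was Xlr (log2 difference 2.05 ± 0.48, adjusted p = 0.23). Il7r, the interleukin-7 receptor of precursor and memory T cells, was 1.77, 10.4, 18.5 and 22.9 CPM in aPD-1 replicates 1 to 3 and IgG, against 24.2, 15.3, 38.2 and 47.7 CPM. It was lower in each library and with each guide, at 0.42, 0.44 and 0.39 of the predicted UMIs, but did not pass over all genes (-1.27 ± 0.34, unadjusted p = 2.3e-04, edgeR adjusted p = 0.54). Both genes were named after their values were seen.

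The targets also differed from each other. Kmt2b and Kmt2c cells differed in 23 genes (0.23% of those tested), Kmt2b and Setd1b cells in 36 (0.359%), and Kmt2c and Setd1b cells in 15 (0.15%) by the edgeR test. At an unadjusted p under 0.05 the shares were 6.84%, 8.92% and 6.93%. Klrk1 was higher in Kmt2c than in Setd1b cells by 1.16 ± 0.21 (adjusted p = 5.5e-04) and higher in Kmt2b than in Setd1b cells by 1.38 ± 0.21 (adjusted p = 2.4e-06), and between Kmt2b and Kmt2c cells the difference was 0.22 ± 0.17 (adjusted p = 0.88).

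As the mean of the 3 targets, 2 genes differed from sgNT cells (0.02%, with 5.06% at an unadjusted p under 0.05), and both fell. Slc37a2 fell by 1.26 ± 0.26 on the log2 scale and Gzme, granzyme E, by 3.91 ± 0.80 (edgeR, adjusted p = 0.017 for both). Slc37a2 passed in 8 of 19 alternatives and Gzme in 9, at -1.55 to -0.85 and -7.39 to -3.03. Without any 1 of the 3 aPD-1 libraries neither passed, and 0 genes were called. Neither passed without guide 2 or guide 3, within either pair of libraries, with at least 5 guide UMIs, with at least 20 cells per sum or with DESeq2, and Slc37a2 was also lost without IgG. Slc37a2 was below its prediction with all 9 guides, at 0.16 to 0.87. Gzme was 29.1 to 36.9 CPM in the sgNT libraries and 0 to 20.1 CPM in those of the members, but the sgNT guides were uneven: their median was 0.049 of the prediction and their highest 16.4. The 9 member guides, at 0 to 0.41, lay within that range.

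The response to a target was then compared between treatments. The interaction of a target with IgG passed for 0 genes with Kmt2b, Kmt2c or Setd1b (0% of 10020 each, edgeR), and 475, 417 and 501 genes had an unadjusted p under 0.05 (4.74%, 4.16% and 5%). With 1 IgG library, these tests assume that it varies like the others.

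The lists of T cell states were read against the share of all genes called, 0.339% with Kmt2b, 0% with Kmt2c and 0.259% with Setd1b guides, so no call in a list of 8 to 12 genes is near the background. Among 9 tested genes of precursor exhausted cells Tcf7 alone passed, with Setd1b, and the median log2 difference was 0.21, beside -0.02 over all genes tested. The 10 genes of exhausted cells, inhibitory receptors and Tox among them, had a median of -0.33 in Setd1b cells, -0.18 in Kmt2c cells and 0.00 in Kmt2b cells, with none called. The 12 G2/M genes had medians of 0.18, -0.16 and -0.19 in Kmt2b, Kmt2c and Setd1b cells, and none was called. Effector, effector memory, G1/S and interferon genes had no call with any target.

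The shares of cells in 9 clusters of the whole data set were compared in the same way. By their leading genes, 4 clusters took the names of lists: proliferating G1/S-like (Ung, Cdc6, Mcm3), effector-like (Xcl1, Ifng, Crtam), precursor exhausted-like (Ccr7, Tcf7, Tnfsf8) and effector memory-like (Klf2, S1pr1, with Isg15 and Ifit1 also leading). The others stayed unnamed, led by Bnip3 and Prf1, by replication histones, by Ccnb2 and Cdkn3, by Gzmf and Gzmd, and, at a median of 2210 UMIs, by Gm42418 and Igkc.

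No share of the 3 targets passed: over 70 targets and 9 clusters 0% of 630 tests did, and 4.13% had an unadjusted p under 0.05. In the exact two-sided permutation test over guides the precursor exhausted-like cluster with Setd1b had the smallest p, 0.018 (adjusted 0.63). Setd1b cells were there at 5.56% of 18, 14.3% of 14, 11.1% of 45 and 11.6% of 69 in aPD-1 replicates 1 to 3 and IgG, against 4.64%, 6.07%, 2.97% and 8.01% of sgNT cells. They were higher in each library, by 5.21 percentage points on average, but with at least 5 guide UMIs the difference turned to -0.89 points. The exact 95% interval of the share in replicate 1 ran from 0.14% to 27.3%. Guides 1 to 3 contributed 5, 5 and 6 cells.

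In the histone-led cluster Setd1b cells were at 0%, 7.14%, 11.1% and 18.8% against 16.1%, 16.6%, 12.7% and 16.3%, a mean difference of -6.16 points (exact permutation p = 0.076, adjusted 0.91). The exact 95% interval of 0 of 18 cells in replicate 1 reached 18.5%, so that library does not show a difference. Kmt2b cells were at 23.9%, 18.6%, 18.2% and 22.0% of the same cluster, higher in each library by 5.24 points on average (exact permutation p = 0.13, adjusted 0.91). In the Bnip3-led cluster the shares of Kmt2b, Kmt2c and Setd1b cells differed from those of sgNT cells by -6.87, -5.74 and -5.64 points on average (exact permutation p = 0.16, 0.22 and 0.26, each adjusted to 0.91). Median UMIs per cell in IgG were 6822.5, 5712 and 6686 for Kmt2b, Kmt2c and Setd1b cells against 6348 for sgNT cells. In aPD-1 replicates 1 to 3 they were 18410, 16898 and 13366 for Kmt2b and 20902, 18977 and 11892 for Kmt2c cells. Setd1b cells had 20238, 13677 and 14314 there, and sgNT cells 17583, 16966 and 12302.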

How the data were processed

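Single-cell 3′ libraries with guide capture were made from sorted tumour-infiltrating OT-I cells, 3 aPD-1 libraries and 1 IgG library. The deposited values are UMI counts per gene, guide and barcode, which the authors made with Cell Ranger 3.1.0 against mm10, together with its guide calls per barcode. Cells with exactly 1 called guide and at most 10% mitochondrial UMIs were kept, and no doublet caller was run beyond that rule. Counts were summed per target and library where at least 10 cells were present. Sums of all targets were fitted together in edgeR 4.0.16 (R 4.3.3) by the quasi-likelihood test with library as covariate, filterByExpr, TMM factors and Benjamini-Hochberg adjustment at 0.05. CPM in the text are UMIs per 1000000 of a sum. Clusters were made with Seurat 5.3.0. The fit was tested on simulated data.

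Shares in clusters and cells per target were compared by exact permutation tests over guides. Named genes were the 10 largest rises and falls per target among those called with the same sign in every library, plus called members of the gene lists and the H3K4 methyltransferases. Ttc3, Trdc, Trav21-dv12, Gm49795, Satb1, Sh3bp5, Cd63, Mpzl2, Magohb, Gzme, Xlr and Il7r fell outside this rule and were named after their values were seen. Genes in which 1 cell held over 50% of the UMIs were named apart. The members and lists were chosen with earlier results of these data known. Guide positions used the mm10 (GRCm38) annotation, and spacers came from the study's guide list. Start windows are from RefSeq GRCm38.p6. Intervals cover counting error only. Alternatives included other normalization, filters, guide thresholds, DESeq2 1.42.0, and leaving out guides or libraries.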

Additional observations from a re-analysis of the deposited data

How the results depend on the processing

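Counts of called genes moved by over 1.5 times with the choice of guides, cells, libraries, filter and summing. The Kmt2b count of 34 became 4 with at least 5 guide UMIs (3 of them among the 34), 12 without cells holding other cells' markers (all 12 shared), 3 without guide 3 (0 shared) and 21 with DESeq2 on the 3 targets and sgNT cells (12 shared). Without 1 library they numbered 15 to 19, and in aPD-1 replicates 1 and 2 alone 13, in replicate 3 and IgG alone 7. The Setd1b count of 26 became 46 with no low-count filter, 3 with at least 5 guide UMIs, 16 and 13 without other cells by the wider and narrower list, 4 with at least 20 cells per sum, 44 with 1 sum per guide, 1 without guide 2 and 50 without guide 3. Without 1 library it was 3 to 31, and in the pairs of libraries 8 and 5. For Kmt2c 1 gene was called with only the 3 targets and sgNT cells in the fit, with at least 5 guide UMIs, with 1 sum per guide, without guide 1, without guide 2 and in aPD-1 replicates 1 and 2 alone, and 0 in the other settings. For the mean of the 3 targets the count was 13 with no filter, 8 with the small fit, 28 with 1 sum per guide, 6 without guide 3 and 1 with DESeq2 (neither Slc37a2 nor Gzme among them), and 0 with at least 5 guide UMIs, at least 20 cells per sum, without guide 2 and in each pair of libraries. Without 1 library it was 0 to 2.

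With at least 5 guide UMIs the Setd1b transcript in Setd1b cells turned to 0.14 and the share of Setd1b cells in the precursor exhausted-like cluster to -0.89 points, and neither passed in either form. Among single Kmt2b genes Trdc turned to -0.70 without cells of other types, which follows from the removal since Trdc is on that marker list, and to -0.52 without guide 3, Trav21-dv12 to -0.17 without guide 3 and -0.014 in replicate 3 and IgG alone, Gm49795 to -1.16 without guide 3 and Gm5907 to -0.29 without guide 2. The genes carried by 1 Setd1b cell also turned. With at least 5 guide UMIs Krt8 was -1.64 and Rbp4 -0.99. With at least 20 cells per sum Sprr1a was -0.94, Krt8 -2.91, Krt18 -0.54 and Rbp4 -1.80. Without guide 2 Sprr1a was -0.91, Krt8 -2.09, Myof -0.21 and Rbp4 -1.57. Without 1 library Krt8 ranged from -2.59 to 5.44, Krt18 from -0.53 to 4.82 and Rbp4 from -1.66 to 5.03, each lowest without aPD-1 replicate 2, and in replicate 3 and IgG alone Sprr1a was -0.49, Krt8 -2.26 and Rbp4 -2.04. Leaving out guides, cells or libraries leaves fewer cells per sum, and some settings also lose libraries. Without guide 3 Kmt2b kept 2 libraries, and Setd1b kept 3 without guide 2 and with at least 5 guide UMIs and 2 with at least 20 cells per sum. Beyond that the cause was not tested.

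The narrower marker list, the small DESeq2 fit and the pairs of libraries were chosen after seeing the data. DESeq2 on all sums was not run. In the edgeR fits targets and sgNT cells were compared within libraries through the library covariate, while the permutation tests over guides averaged over libraries the within-library differences in cluster share or each guide's log2 share of cells. Between treatments the replicate numbers pair nothing. No paired analysis was possible because aPD-1 and IgG share fewer than 2 replicate numbers.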
